A study of Arabidopsis thaliana with 6 samples.

Results

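The 10 genes described here encode MADS-domain transcription factors that act in the change from leaf production to flowering in Arabidopsis thaliana. They comprise 8 activators (SOC1, AGL24, FUL, AP1 and SEP1 to SEP4) and 2 repressors (FLC and SVP). They were found by gene identifier among the 23022 genes listed in at least 1 library, and all 10 were listed. The set was chosen by its roles together with earlier results of the same contrast, 17ab against WT, so the values of the members in that contrast are a description. Whether a member was past the threshold of the fit over all genes is stated as part of it and supports nothing.

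Polyadenylated RNA of whole seedlings was sequenced from wild type (WT, 3 libraries) and from the genotype labelled 17ab (3 libraries). Seeds of both genotypes were grown for 10 days on upright plates of Murashige and Skoog medium, seedlings of similar size were taken, and the labels name no other treatment. The title of the series asks about the unfolded protein response, the pathway by which cells adjust to unfolded protein in the endoplasmic reticulum, in vegetative development. The labels give no ecotype, no mutated gene or allele of 17ab, and no number of seedlings per library. They do not say that the libraries came from separate cultures, so every p-value rests on the spread among these libraries, and that spread may be technical.

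MADS-domain proteins bind DNA in pairs and higher assemblies at a short motif named the CArG box. In the leaf and shoot apex, FLC and SVP together hold down the florigen gene FT and the integrator gene SOC1. When this repression is relieved and day length is inductive, FT moves from the leaf to the shoot apex, where SOC1 and AGL24 rise, and FUL and AP1 follow in the inflorescence and the young flower. The SEP proteins are the partners with which other MADS-domain proteins form the complexes that specify floral organs, and SEP3 also acts earlier, alongside FT signalling.

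The library totals ran from 5968854 to 6292461 expected counts, and each library listed 21003 to 21429 genes. A floor of 3 counts corresponded to 0.477 to 0.503 CPM (counts scaled to the library total). In the fit over all 17854 genes that passed the filter on low counts, 2515 (14.1%) passed the adjusted threshold of 0.05 in edgeR's quasi-likelihood test, 1352 of them higher in 17ab (7.57%) and 1163 lower (6.51%). With an offset for gene length and GC content the split turned to 1093 higher and 1462 lower, so that the share of higher genes moved from 53.8% to 42.8%. Of 5 genes for sensors and transcription factors of the unfolded protein response, which bear on the genotype, bZIP17 fell from 10.7 ± 0.507 to 2.02 ± 0.104 FPKM (SD, n = 3; edgeR adjusted p = 1.221e-06). IRE1A fell from 12.3 ± 0.247 to 3.93 ± 0.174 FPKM (edgeR adjusted p = 2.982e-06) and IRE1B from 8.09 ± 0.243 to 4.95 ± 0.387 FPKM (edgeR adjusted p = 0.001345). The fold changes of bZIP28 (log2 0.16 ± 0.10, SE) and bZIP60 (0.23 ± 0.12) did not pass.

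Among the members, SEP3 stood at 33.0% of its WT level in 17ab, SOC1 was modestly lower and the repressor SVP modestly higher in FPKM, while AGL24, SEP4 and FLC overlapped between the genotypes. The other 4 members, FUL, AP1, SEP1 and SEP2, were too low for the fit. Of the 6 members tested, 2 were past the threshold, both lower (SEP3 and SOC1), beside 6.51% of all tested genes. The contrast was used to choose the members, so nothing is read from that count, and SOC1 was no longer past the threshold in 5 of 6 fits that left out a library. The median log2 fold change of the 6 tested members was -0.18, with a range from -1.6 to 0.16, beside a median of -0.002 over all tested genes. In FPKM, the library values of the genotypes did not overlap for SEP3, SOC1 and SVP, while 31.1% of all tested genes had groups that did not overlap.

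**Figure D1:**
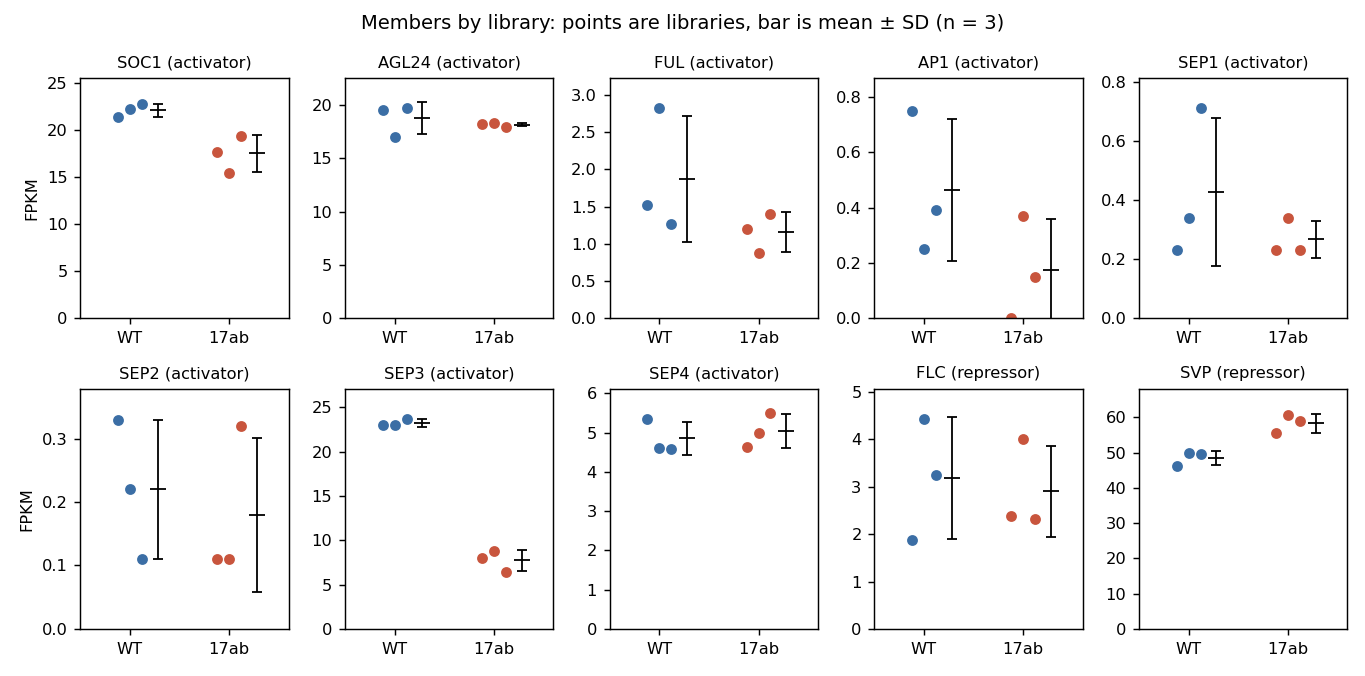
FPKM of each of the 10 members (vertical axes from 0, a separate scale for each gene) in the 3 WT libraries (blue) and the 3 libraries of 17ab (red), with the mean ± SD as bars, cut at 0 for AP1. SEP3, SOC1 and SVP are the members whose genotypes do not overlap, and SEP3 has the widest gap, 23.3 against 7.76 FPKM.

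SOC1 (AT2G45660, listed as AGL20 in RefSeq) integrates the signals from FT, age and gibberellin at the shoot apex. It lies on the minus strand at chr2:18807505-18811125 of TAIR10.1. In that build all 12586 genes with 1 transcript had the deposited length, and SOC1, with 2 transcripts, was not compared. Its FPKM was 21.35, 22.16 and 22.71 in WT replicates 1 to 3 and 17.68, 15.44 and 19.31 in 17ab replicates 1 to 3. Every library of 17ab lay below every WT library, with the spread wider in 17ab than in WT. The mean was 22.1 ± 0.684 FPKM in WT and 17.5 ± 1.94 in 17ab (SD, n = 3), and the edgeR log2 fold change was -0.36 ± 0.10 (SE), or 77.8% of WT. In whole seedlings, fewer cells expressing a gene and less RNA per cell cannot be told apart. Over 15 alternatives in processing its log2 fold change lay between -0.44 and -0.29.

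The CArG box was searched upstream of the members because these proteins regulate one another through it. It was taken as a motif of 10 bases that begins with CC, ends with GG and holds only A or T between them. The boxes found are shown here with 10 bases on either side, the box in capitals, 5′ to 3′ on the strand of the gene, from the RefSeq TAIR10.1 genome.
SOC1, chr2:18811817-18811846, minus strand: aattttatctCCAAAAAAGGatattttttt
FUL, chr5:24508515-24508544, minus strand: ttcatgtggtCCAATTTTGGtatatactat
FUL, chr5:24508041-24508070, minus strand: ggcaccggaaCCAAATTTGGagtaacccat
SEP1, chr5:5156245-5156274, minus strand: agttgatgtaCCATAATTGGtgcaaacaca
SVP, chr2:9577621-9577650, plus strand: aagaaagaagCCTAAAATGGctaaaaggtt

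The SOC1 box began 711 bases before the start of the gene, closer than the box of any other member. The FUL boxes began 2265 and 1791 bases before the start, the SEP1 box 2011 bases and the SVP box 2016 bases. The SEP1 box lies within an exon of the neighbouring gene AT5G15802, and the other boxes lie in no annotated gene. Within 250 bases before the start, no member had a box, while 2.52% of 27443 protein-coding genes had one. Within 1000 bases 1 of 10 members had one beside 7.21% of 27443 genes, and within 3000 bases 4 of 10 members beside 18.52% of 27440. Both strands were read, and the motif is the same class on each. SEP3, the member with the widest difference between genotypes, had none within 3000 bases, which says only that these letters are not in that window.

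AGL24 (AT4G24540, chr4:12670897-12674106, minus strand) promotes SOC1 and is promoted by it in the shoot apex. Its FPKM was 19.56, 17.03 and 19.73 in WT replicates 1 to 3 and 18.18, 18.3 and 17.98 in 17ab replicates 1 to 3. The 17ab libraries all fell inside the WT range. Means were 18.8 ± 1.51 and 18.2 ± 0.162 FPKM (SD, n = 3), with a log2 fold change of -0.08 ± 0.12 (SE).

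FUL (AT5G60910, AGL8 in RefSeq), which acts with SOC1 in the inflorescence meristem and later in the fruit, was low in every library. Its counts were 12, 19 and 7 in WT and 9, 7 and 10 in 17ab, or 1.87 ± 0.841 against 1.16 ± 0.268 FPKM (SD, n = 3). The libraries overlapped. The summed counts were 38 and 26, a ratio of 0.665 with an exact 95% interval of 0.388 to 1.12, and such intervals cover counting error only. AP1 (AT1G69120), which specifies the floral meristem and the outer floral organs, was near the floor of 3 counts. AP1 had counts of 6, 2 and 3 in WT and 3 and 1 in 17ab replicates 2 and 3, and was not listed in 17ab replicate 1. Its sums were 11 and 4, a ratio of 0.354 with an interval of 0.0821 to 1.19, so that no difference was detectable at this depth.

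The SEP genes divided into an expressed pair and a pair near the floor. SEP3 (AT1G24260, chr1:8593536-8596123, minus strand) is the SEP partner expressed in the inner floral organs, is held down by SVP in the youngest flower buds, and can be induced in leaves by FT. Its FPKM was 23.02, 23.02 and 23.74 in WT replicates 1 to 3 and 8.0, 8.81 and 6.47 in 17ab replicates 1 to 3. The highest 17ab library was below every WT library by more than the whole range within either genotype. The mean was 23.3 ± 0.416 FPKM in WT and 7.76 ± 1.19 in 17ab (SD, n = 3). The edgeR log2 fold change of SEP3 was -1.6 ± 0.13 (SE), or 33.0% of WT, and ranked 21 from the lowest of 17854 tested genes. Over the 15 alternatives it lay between -1.68 and -1.48.

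SEP4 (AT2G03710, chr2:1129229-1131838, plus strand), which acts in the floral meristem as well as in the organs, had 5.35, 4.62 and 4.59 FPKM in WT and 4.64, 4.99 and 5.5 in 17ab. The libraries overlapped, and the log2 fold change was 0.00 ± 0.20 (SE). Its sign varied over the alternatives, between -0.08 and 0.09. SEP1 (AT5G15800) and SEP2 (AT3G02310), close copies that act redundantly in flowers and whose shared reads the counting could split, had at most 6 counts in any library. All of these counts were whole numbers, so no fractional split shows in them. The SEP1 counts were 2, 3 and 6 in WT and 2, 3 and 2 in 17ab, and those of SEP2 were 3, 2 and 1 in WT and 1, 1 and 3 in 17ab. Ratios of the summed counts were 0.619 for SEP1 (exact 95% interval 0.203 to 1.75) and 0.81 for SEP2 (0.196 to 3.19). SEP1 also shares exon sequence with AT5G15790 on the opposite strand, which had 45 to 69 counts, and whether the counting used strand is not stated in the labels.

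FLC (AT5G10140, chr5:3173382-3179448, minus strand), the vernalization-sensitive repressor, was low and variable. Its FPKM was 1.87, 4.44 and 3.25 in WT and 2.38, 4.02 and 2.33 in 17ab, and the highest and the lowest library were both WT. The means were 3.19 ± 1.29 and 2.91 ± 0.962 (SD, n = 3), with a log2 fold change of -0.28 ± 0.36 (SE), wide enough to leave the sign unsettled (-0.55 to 0.06 over 14 alternatives, the latter without WT replicate 2).

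SVP (AT2G22540, chr2:9579647-9583901, plus strand), which with FLC represses FT and SOC1 and also acts in cool temperature, was the most abundant member. Its FPKM was 46.29, 49.83 and 49.52 in WT replicates 1 to 3 and 55.46, 60.79 and 58.93 in 17ab replicates 1 to 3. Every 17ab library was above every WT library. The mean was 48.5 ± 1.96 FPKM in WT and 58.4 ± 2.71 in 17ab (SD, n = 3). In CPM, which does not divide by length, the means were 63.3 ± 1.51 and 72.3 ± 2.9, also with no overlap, and the 17ab to WT ratio was 1.14 in CPM against 1.2 in FPKM. The edgeR log2 fold change of the counts was 0.16 ± 0.07 (SE) and was not past the threshold. Over the 15 alternatives it was between 0.11 and 0.27. It was higher in the 3 that took FPKM, where it passed, than in the others, where it did not.

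FPKM is scaled by a length close to the deposited length of the gene, though not exactly equal to it. The difference between the scales for SVP goes with its deposited length, which averages over annotated transcripts. It was 1334.57, 1290.64 and 1303.8 bases in WT replicates 1 to 3 and 1265.19, 1248.38 and 1221.47 in 17ab replicates 1 to 3. Every 17ab library was shorter, with means of 1310 ± 22.5 and 1245 ± 22.1 bases (SD, n = 3). Groups that did not overlap in this length occurred in 818 of 8762 genes with several transcripts (9.34%), and 548 of those were shorter in 17ab. The 3 annotated SVP transcripts differ in the sequence before the coding start, with 770 bases in AT2G22540.1, 543 in AT2G22540.2 and 107 in AT2G22540.3, and have 1791, 1534 and 1113 bases in all. AT2G22540.2 also skips the last 15 bases, or 5 codons, of the first coding exon as the others have it. That exon end is shown because it is the coding difference between the SVP transcripts, with the skipped bases in capitals.
SVP, chr2:9580569-9580598, plus strand: cggaaaactgttcgaGTTCTGTAGCTCCAG

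The lengths deposited for SOC1 overlapped between the genotypes, and the share assigned to its longer transcript ran from 9.9% to 49.0% in WT and from 4.2% to 64.8% in 17ab. These shares and lengths are estimates that come from the authors' processing, and counts per transcript were not used here.

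**Figure D2:**
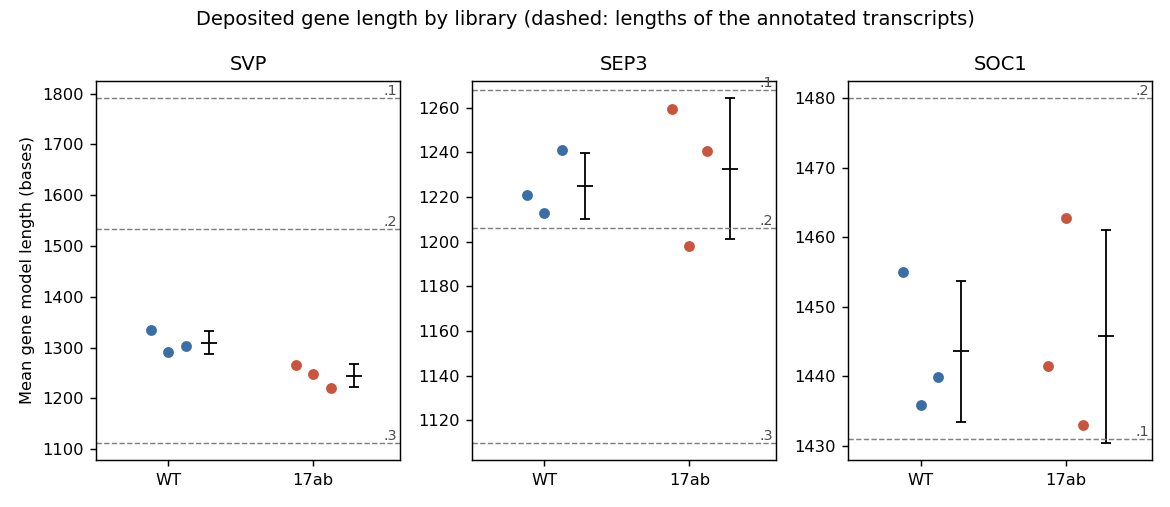
Deposited gene length in bases (vertical axes not from 0, a separate scale for each gene) of SVP, SEP3 and SOC1 in each WT (blue) and 17ab (red) library, with mean ± SD bars and the annotated transcript lengths as dashed lines. The SVP lengths of 17ab lie below those of WT, 1245 against 1310 bases on average, while the libraries overlap for SEP3 and SOC1.

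The median log2 fold change of the 4 tested activators was -0.22 and that of the 2 repressors -0.06. Their difference was -0.16, a description of 6 genes chosen on this contrast. It ran from -0.43 to -0.09 over the alternatives (-0.42 without 17ab replicate 3 and -0.09 without 17ab replicate 2). The genes that entered the difference varied among these fits. It took 4 activators in the fit of all libraries, 5 in the fits that left out a library and 8 with DESeq2. With a filter of 5 CPM, FLC dropped out and the difference was -0.38. The repressors themselves had opposite signs, SVP 0.16 and FLC -0.28.

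The members spanned a wide range of levels per length, and the order changed in the middle and among the lowest. In WT, mean FPKM ran from SVP (48.5) through SEP3 (23.3), SOC1 (22.1), AGL24 (18.8), SEP4 (4.85), FLC (3.19), FUL (1.87), AP1 (0.463) and SEP1 (0.427) to SEP2 (0.22). Neighbours whose WT ranges overlapped were FLC and FUL, AP1 and SEP1, and SEP1 and SEP2. In 17ab, SVP (58.4) was followed by AGL24 (18.2), SOC1 (17.5), SEP3 (7.76), SEP4 (5.04), FLC (2.91), FUL (1.16), SEP1 (0.267), SEP2 (0.18) and AP1 (0.173). There the overlapping neighbours were AGL24 and SOC1, SEP1 and SEP2, and SEP2 and AP1. SEP3 thus stood at rank 2 in WT and rank 4 in 17ab, below AGL24 and SOC1.

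Few genes of the wider flowering pathway passed the threshold. Of 86 other genes in 12 functional lists, 82 were listed and 64 tested, and 1 rose, 3 fell and 60 did not pass, beside 14.1% of all genes past the threshold in either direction. Their median log2 fold change was -0.02. Of these 64 genes, 9 had an unadjusted p under 0.05 in edgeR, beside 4909 of all 17854 tested genes. Among the 27 other MADS genes, 10 were tested and 0 passed in edgeR, in DESeq2 or in filtered limma on FPKM, and 1 had an unadjusted p under 0.05. These include the 5 relatives of FLC, with log2 fold changes from -0.29 to 0.33 and a list median of -0.07. Among them FLM was at 24.1 ± 1.95 and 23.4 ± 3.19 FPKM and MAF2 at 33.2 ± 2.43 and 32.6 ± 3.34 (SD, n = 3). Of the relatives of SOC1 (5 genes) and of AP1 and AGL6 (4 genes), none was high enough to test. AGL16, a root and leaf MADS gene and the single tested member of its list of 5, was at 14.2 ± 1.72 and 14.6 ± 1.07 FPKM, a log2 fold change of 0.01 ± 0.14 (SE). The floral organ MADS genes had 2 of 6 tested and none past the threshold, and AGL15 and AGL18 likewise had none of 2.

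No regulator of FLC passed in edgeR, in DESeq2 or in filtered limma on FPKM. Its 16 activators had log2 fold changes from -0.21 to 0.29 with a median of 0.00. Of them, 0 had an unadjusted p under 0.05, beside 4909 of all 17854 tested genes. The 10 tested genes of vernalization and polycomb silencing had a median of -0.1 and the 7 genes of the autonomous pathway a median of 0.01, and each of these lists held 1 gene with an unadjusted p under 0.05.

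The 4 genes that passed were FT, SPL3, SPL9 and TOE2. FT, the florigen that activates SOC1, was at 14.7, 24.2 and 12.96 FPKM in WT replicates 1 to 3 and 7.76, 6.24 and 11.22 in 17ab replicates 1 to 3. All 17ab libraries were below all WT libraries, and WT replicate 2 was the highest. FT fell by 1.07 ± 0.25 on the log2 scale (SE; edgeR adjusted p = 0.01408), from 17.3 ± 6.05 to 8.41 ± 2.55 FPKM (SD, n = 3). Without WT replicate 2 the log2 fold change was -0.76 and the edgeR adjusted p = 0.07426, the highest over the 15 alternatives, in which it ran from 0.004001. FT was the single called gene of 6 tested in the photoperiod list (median -0.08).

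SPL3 and SPL9, transcription factors of the age pathway that promote SOC1, FUL and AP1, were the called genes among 7 tested in the list of meristem identity genes and their partners (median -0.35). SPL3 was at 15.77, 13.5 and 15.23 FPKM in WT and 9.7, 9.69 and 11.55 in 17ab, and fell by 0.55 ± 0.15 on the log2 scale (SE; edgeR adjusted p = 0.02871). SPL9 was at 3.73, 4.33 and 4.31 FPKM in WT and 3.03, 2.31 and 2.59 in 17ab, and fell by 0.67 ± 0.21 (SE; edgeR adjusted p = 0.0479). The genotypes did not overlap for either gene. SPL3 passed in 2 of 6 fits that left out a library (those without WT replicate 2 or 17ab replicate 3), and SPL9 in 0 of 6, with adjusted p between 0.0551 and 0.1361 in edgeR.

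TOE2, an AP2-like repressor of FT, was the 1 gene of these lists past the threshold that was higher in 17ab. Its FPKM was 10.57, 8.4 and 8.56 in WT and 13.0, 11.14 and 13.75 in 17ab, with no overlap, and the log2 fold change was 0.44 ± 0.13 (SE; edgeR adjusted p = 0.03836). It passed in 2 of 6 fits that left out a library, those without WT replicate 1 or 17ab replicate 2. The 8 AP2-like and TEM repressors had a median of 0.2, and the other 7 did not pass. With DESeq2, FT was the 1 gene of these 4 that passed, and with limma on filtered FPKM FT and SPL3 did. TOE2 also missed the threshold with the offset for gene length and GC content.

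**Figure D3:**
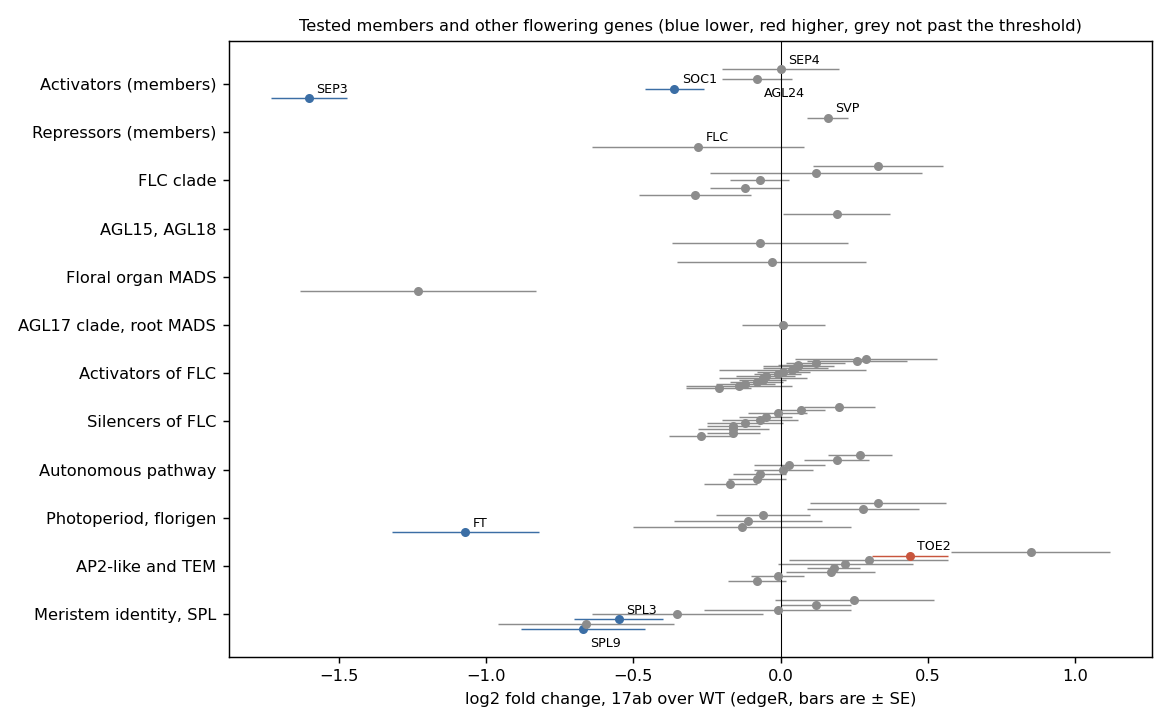
Log2 fold change of 17ab over WT from edgeR (horizontal axis, bars ± SE) for the 6 tested members and the 64 tested genes of the other flowering lists (rows). Genes past the adjusted threshold are named in blue where lower (SEP3, SOC1, FT, SPL3, SPL9) and red where higher (TOE2), and the remaining genes are grey, with the tested members labelled by name.

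**Figure D4:**
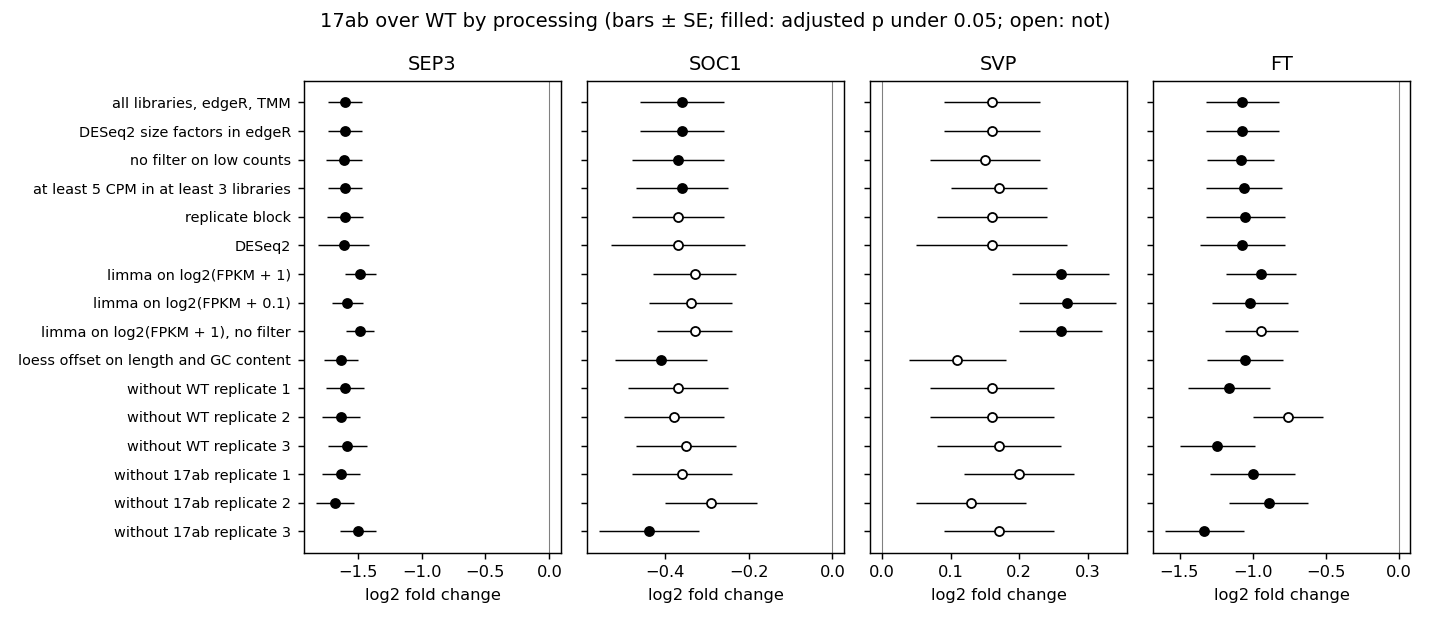
Log2 fold change of 17ab over WT (horizontal axes, a separate scale for each gene, bars ± SE) for SEP3, SOC1, SVP and FT under the edgeR fit of all 6 libraries and the 15 alternatives (rows), filled where the adjusted p was under 0.05. SEP3 is filled in every row, between -1.68 and -1.48, SOC1 in 5 of the 15 alternatives, SVP in the 3 that test FPKM and FT in all but 2.

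Summed markers of the tissues in which these genes act overlapped between the genotypes. The 8 markers of the shoot meristem summed to 138 to 159 CPM in WT and 149 to 168 in 17ab, with 0 of 5 tested past the edgeR threshold (0 also in DESeq2, in limma and by an unadjusted p under 0.05, as for the phloem and root lists) and the stem cell gene CLV3 listed in no library. Most of this meristem sum came from CLV1 and ATH1. The log2 fold changes of CLV1, KNAT1 and ATH1 were 0.16, 0.06 and 0.03, and those of STM and KNAT2 -0.14 and -0.51. The 4 phloem markers, from the tissue that makes FT protein, summed to 470 to 498 CPM in WT and 493 to 498 in 17ab, with 0 of 4 called. The 10 root markers summed to 60.0 to 70.9 and 64.4 to 71.2 CPM, with 0 of 2 tested called, and most of that sum came from SHR and SCR. Of the 8 root markers too low for the fit, COBL9 had counts of 0, 0 and 0 in WT and 3, 2 and 2 in 17ab, EXPA7 1, 0 and 0 against 5, 3 and 3, and CASP1 3, 4 and 1 against 8, 6 and 8. These were higher in every 17ab library, while CASP2, with counts of 4, 7 and 3 against 1, 3 and 3, had lower FPKM in every 17ab library. WOX5, PLT1, PLT2 and RHD6 had at most 3 counts in any library of either genotype. How much root the libraries held was not tested. The 7 photosynthesis markers of the leaf summed to 40200 to 47500 CPM in WT and 37700 to 41600 in 17ab. Of these 7, 1 was called in edgeR, 2 in DESeq2 and 1 in limma. An unadjusted p under 0.05 occurred in 3 of them, beside 4909 of all 17854 tested genes. The gene called in edgeR, GLDP1 of photorespiration, fell from 546 ± 28.1 to 458 ± 23.8 FPKM (SD, n = 3; edgeR adjusted p = 0.02023). RBCS1A, a Rubisco small subunit gene, was at 10700 ± 907 and 9140 ± 427 FPKM without overlap (edgeR adjusted p = 0.05214). The log2 fold changes of RCA, LHCA1, CAB1, PSBO1 and CAB3 were -0.21, -0.13, -0.09, -0.01 and 0.0, and their FPKM overlapped. Most of this leaf sum came from CAB1 and RBCS1A. The part of these tissues in the values of the members was not tested.

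The genes whose profile over the 6 libraries was most like that of the most abundant activator and repressor were sought among 17853 other tested genes, by the root mean square difference of log2 CPM centred on each gene's mean. Averaged over all 6 libraries, those members were SOC1 and SVP. For SOC1 the nearest were AT3G12930 and AT1G16740, both at 0.029, and the arabinogalactan protein gene AGP17 at 0.031, with log2 fold changes of -0.38, -0.32 and -0.37. For SVP they were NRPB1, the largest subunit of RNA polymerase II, at 0.019, the galactolipid synthase gene MGD1 at 0.024 and SFGH at 0.025, with log2 fold changes of 0.19, 0.13 and 0.19. Likeness was sought in the same libraries as the contrast, so the similar log2 fold changes are part of that choice and no result. None of these 6 genes is in the flowering lists.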

How the data were processed

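The deposited table of each of the 6 libraries holds, per the file headers, 1 row per gene with its length, expected count and FPKM. The authors' expected counts are estimated reads per gene, not normalized, and the deposited FPKM values are scaled by gene length and library total. Tools named without a role in the submitters' processing notes are HTSeq 0.6.0, STAR 2.4.0 and DESeq2, with TAIR10 as the build. Which program estimated the counts, and whether it used strand, is not given in the sources. Genes without reads have no row and were taken as 0. Between 91.3% and 91.8% of counts were whole (tolerance 1e-06), including all counts of the members. All 12586 genes with 1 transcript had the same length in RefSeq TAIR10.1, from which names, coordinates and sequences came; 22834 of 23022 genes matched.

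Rounded expected counts went into edgeR 4.0.16 under R 4.3.3 (quasi-likelihood test, TMM, its default expression filter, genotype as the single term, all 6 libraries, Benjamini-Hochberg adjustment over 17854 genes, threshold 0.05). Standard errors are the log2 fold change over the root of F. Alternatives used DESeq2 1.42.0, limma 3.58.1 on log2(FPKM + 1) and log2(FPKM + 0.1), other filters and scaling, a loess offset (span 0.5) on length and GC content, a replicate block, and each library left out.

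The members and lists were chosen with earlier results of these data known. Genes named are all members, list genes past the threshold, the single tested gene of a list, the 5 genes of the unfolded protein response, and the 3 genes most like the most abundant activator and repressor. FLM, MAF2 and the markers named are further examples of their lists, chosen after their values were seen.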

Additional observations from a re-analysis of the deposited data

How the results depend on the processing

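All 15 alternatives ran. No gene named as past the threshold changed sign in any of them, while the log2 fold change of FLC (0.06 without WT replicate 2) and that of SEP4 (-0.08 to 0.09) did, and the length and GC offset turned the majority of all called genes from higher to lower (1093 and 1462). The genes past the threshold numbered 2515, against 1599 with DESeq2, 1616 with limma on unfiltered log2(FPKM + 1), and 1571 to 2090 without 1 library (1571 without WT replicate 2 and 1581 without WT replicate 3). The members past it were SEP3 and SOC1 (2), against 1 (SEP3) with DESeq2, 2 (SEP3 and SVP) with limma on FPKM and 1 to 2 without 1 library (SOC1 was kept only without 17ab replicate 3). The other flowering genes past it numbered 4, against 1 with DESeq2, 2 with limma on log2(FPKM + 1), 2 with limma on log2(FPKM + 0.1), and 1 to 3 without 1 library (1 without WT replicate 2 or 17ab replicate 1). The difference between activators and repressors ran from -0.43 to -0.09, against -0.16. The fits that left out a library had fewer samples, and several alternatives took other genes into the difference between activators and repressors. Beyond this, the cause of these differences was not tested.

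Same-numbered libraries did not deviate together (correlations of -0.003, -0.108 and -0.046), which cannot settle whether the numbers pair the samples. With the replicate block, 1853 genes, 1 member (SEP3) and 2 other flowering genes passed. Counts under about 3 per library limit AP1, SEP1 and SEP2.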

Other observations

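The 3 genes that follow belong to the flowering lists, did not pass the edgeR threshold in the fit of all libraries or could not be tested in it, and were picked after their values were seen. LFY, which switches on AP1 in the young flower, had counts of 7, 6 and 8 in WT replicates 1 to 3 and 3, 1 and 2 in 17ab replicates 1 to 3, or 0.9 ± 0.154 and 0.253 ± 0.125 FPKM (SD, n = 3). The genotypes did not overlap, but the counts were too low for the fit. PI, a floral organ MADS gene of petals and stamens, had 11, 12 and 11 counts in WT and 5, 5 and 5 in 17ab, and its log2 fold change was -1.23 ± 0.40 (SE), with an adjusted p of 0.05723 in edgeR and of 0.02688 to 0.3246 over the alternatives, the lowest from limma on unfiltered FPKM. SMZ, an AP2-like repressor of FT, was at 4.54 ± 1.72 FPKM in WT and 8.25 ± 1.83 in 17ab, its libraries overlapped, and its log2 fold change was 0.85 ± 0.27 (SE), with an adjusted p of 0.05177 in edgeR and of 0.02311 to 0.1767 over the alternatives, the lowest without WT replicate 3.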
